A study of Mus musculus with 12 samples.

Results

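The genes described here are 36 enzymes and regulators that remove reactive oxygen or keep thiols reduced, and their transcripts were measured by RNA sequencing in pancreatic islets of mice. They were chosen by name from the islet expression table, in which all 36 were listed, each in 1 row, among 24078 rows. The animals were male F2 hybrids of the 129S6/SvEvTac and C57BL/6 backgrounds, aged 5 to 6 months, from the Wfs1tm1Koks line, with 4 wild type (WT), 4 heterozygous (Wfs1HZ) and 4 homozygous mutant (Wfs1KO) mice. In that allele a LacZ cassette replaces most of exon 8 in every tissue of the body, and a truncated fusion transcript is still made, so the homozygotes are not a complete null. The islets of all 12 animals were isolated with collagenase, picked by hand and kept overnight in a high-glucose medium before the RNA was taken, so the control islets had also been through digestion and culture. WFS1 is a membrane protein of the endoplasmic reticulum, and its loss causes Wolfram syndrome, in which insulin-producing beta cells are lost.

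Superoxide dismutases turn superoxide into hydrogen peroxide, which catalase, glutathione peroxidases and peroxiredoxins then break down. Glutathione and thioredoxin supply the electrons for these peroxidases and are themselves reduced by glutathione reductase and the thioredoxin reductases at the cost of NADPH. The transcription factor NRF2, encoded by Nfe2l2, is held at low levels by its adaptor KEAP1 and switches on many of these genes through antioxidant response elements when thiols are oxidised. Pancreatic beta cells are known for low levels of catalase and glutathione peroxidase compared with liver, and TXNIP, which binds and inhibits thioredoxin, is known in beta cells for its induction by glucose.

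Values are RPKM, which are reads per kilobase of transcript scaled to the mapped reads of the library, as the authors deposited them. The table holds no read totals, and the smallest steps of the values in short genes put the reads behind them at between 2191000 and 9557000 per library. This estimate lies below the sequencing depth stated in the methods, and the gap was not resolved here. By the estimate, 3 reads on a transcript of 2 kb were worth 0.157 to 0.685 RPKM. At that depth 27 of the 36 genes had at least 10 estimated reads in every library, and the other 9 fell below 10 in at least 1. No defining marker of the beta, other endocrine, exocrine or stromal cells was at 0 in any animal, although the beta-cell factor Mafa was listed at 0 in 10 of 12 libraries. The libraries differed widely in their mix of cells, since the summed RPKM of 10 acinar genes was 54067 to 118797 in WT but 9068 in Wfs1HZ animal 2, 9093 in Wfs1KO animal 4, 280524 in Wfs1KO animal 3 and 308803 in Wfs1HZ animal 4. Wfs1 itself was 28.6 ± 3.83 RPKM (SD, n = 4) in WT, 11.1 ± 5.59 in Wfs1HZ and 4.40 ± 1.83 in Wfs1KO. The means follow the labelled order of the genotypes, but the library labelled Wfs1HZ 2, at 4.69 RPKM, lay inside the Wfs1KO range of 2.45 to 6.61. In whole islets, fewer cells of a type and less RNA per cell cannot be told apart.

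The stretches of promoter are shown first for the 3 genes whose unadjusted p fell under 0.05 in at least 1 comparison, namely the conjugating enzyme Gstm1, the regulator Nfe2l2 and the thioredoxin inhibitor Txnip. Each runs over the 250 bases before the RefSeq transcription start in build GRCm38.p6, read 5′ to 3′ on the strand of the gene: Gstm1 at chr3:108017974-108018223 (minus strand, upstream of the first of its 2 listed starts), Nfe2l2 at chr2:75704664-75704913 (minus strand) and Txnip at chr3:96557707-96557956 (plus strand). Capitals in Nfe2l2 mark the core of the antioxidant response element, TGACNNNGC, which was searched on both strands and whose letters can overlap those of an AP-1 site. Capitals in Txnip mark 2 copies of CACGAG set 5 bases apart, the form of the carbohydrate response element through which glucose is known to act on this gene, a pattern searched only after the window had been read.
Gstm1: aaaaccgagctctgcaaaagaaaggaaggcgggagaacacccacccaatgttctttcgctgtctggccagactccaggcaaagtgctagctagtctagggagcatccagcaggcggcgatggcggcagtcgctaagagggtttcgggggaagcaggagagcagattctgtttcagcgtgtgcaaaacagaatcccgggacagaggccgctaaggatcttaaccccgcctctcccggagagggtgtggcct
Nfe2l2: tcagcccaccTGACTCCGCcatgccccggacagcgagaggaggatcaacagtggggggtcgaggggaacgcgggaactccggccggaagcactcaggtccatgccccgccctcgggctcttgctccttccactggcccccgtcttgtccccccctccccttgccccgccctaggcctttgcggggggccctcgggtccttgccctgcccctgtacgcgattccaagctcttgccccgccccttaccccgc
Txnip: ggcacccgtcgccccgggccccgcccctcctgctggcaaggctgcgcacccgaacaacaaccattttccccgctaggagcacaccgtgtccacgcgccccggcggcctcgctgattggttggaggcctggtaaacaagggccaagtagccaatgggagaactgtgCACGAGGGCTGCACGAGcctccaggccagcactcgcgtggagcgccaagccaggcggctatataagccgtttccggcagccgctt
The paired CACGAG began 85 bases before the Txnip start and was held by 1 of 32851 mouse promoter windows of 300 bases (0.00304%), which is the Txnip window itself. That window had been read before the search, so its match was fixed in advance and the share tests nothing. The antioxidant core was found in 6 of the 29 listed genes with a window (20.7%), against 3781 of 27025 genes with a window (14.0%). Those 6 were Gclm, Nfe2l2, Prdx1, Sod1, Srxn1 and Txnrd1, and in Srxn1 the core lay at or after the start. The core and 16 bases on either side are shown for the other 4, all on the plus strand of the genome and all with the core on the opposite strand: Gclm at chr3:122245407-122245447, Prdx1 at chr4:116685450-116685490, Txnrd1 at chr10:82859098-82859138 and Sod1 at chr16:90220690-90220730.
Gclm: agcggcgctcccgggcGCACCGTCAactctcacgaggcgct
Prdx1: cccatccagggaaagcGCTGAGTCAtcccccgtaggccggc
Txnrd1: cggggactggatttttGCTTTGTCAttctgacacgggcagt
Sod1: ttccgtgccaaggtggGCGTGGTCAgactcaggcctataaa
A match is a run of letters and not a measured binding site, and the window reaches only 300 bases, so a gene without the core here may carry it further away.

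In WT islets the levels of the 36 genes spanned from 533 to 0.69 RPKM. The highest were Gpx3, which encodes the secreted plasma glutathione peroxidase, at 533 ± 251 RPKM (SD, n = 4), Sod1, the copper-zinc superoxide dismutase of the cytosol, at 492 ± 76.9, and Hmox1, the inducible heme oxygenase, at 173 ± 94.4. Gpx1, the main cytosolic glutathione peroxidase, followed at 148 ± 36.1 and thioredoxin, Txn1, at 112 ± 24.9. In the order of WT means, the ranges of neighbouring genes over the 4 animals overlapped at 33 of 35 steps. At 1 of these, Gclm was still above Srxn1 within each of the 4 animals. The ranges were apart only between Sod1 and Hmox1 and between Gss and Gpx2. Down to Gss at 16.1 ± 3.41 RPKM there were 26 genes, and below that gap came 10 genes at 5.84 or less. These low genes were Gpx2, Nqo1, Keap1, Txnrd2, Gpx8, Gstm2, Msra, Gpx4, Gpx7 and Sod3, the extracellular dismutase, which was lowest at 0.69 ± 0.37. Gpx7, an endoplasmic reticulum peroxidase, was listed at 0 in Wfs1HZ animal 1 and Wfs1KO animal 3. RPKM divides by a transcript length that is not given in the sources used here, and 8 of the 36 genes (Gpx2, Gpx4, Gstm1, Gstp1, Prdx1, Prdx2, Sod1 and Txn1) share at least 200 bases at 95% identity or more with another annotated gene, so their levels are uncertain. Every near copy set included a pseudogene, and Gstp1 also matched the protein-coding Gstp2 at 98.2% identity over 86.1% of its transcript. Gpx4, the phospholipid peroxidase, stood at 1.75 ± 1.02 RPKM and matched Gpx4-ps2 at 99.7% identity over 73.7% of its length.

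**Figure D1:**
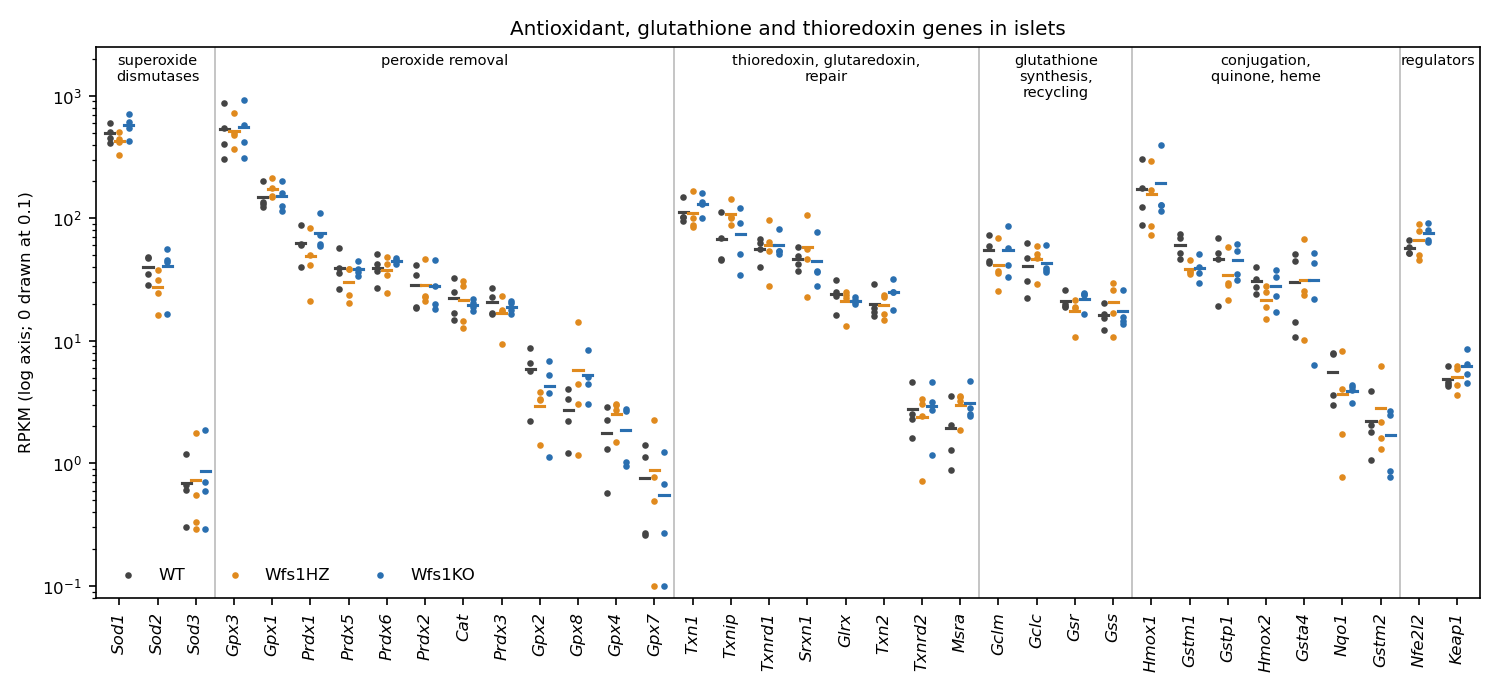
RPKM on a log axis for the 36 genes, arranged by role and by WT mean, with a point for each of 4 animals per genotype and a bar at the mean, and values of 0 drawn at 0.1. Gpx3 and Sod1 have the highest means in all 3 genotypes, and a gap separates Gss from the low genes in WT.

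Across animals of the same genotype the genes had a median standard deviation of 0.55 on the log2 scale, against 0.76 over all 21701 transcripts tested. These sets were not matched for level. Most of the genes lay at or above percentile 84.1 of WT levels, while the transcripts tested went down to a mean of 0.1 RPKM. Among the low genes that deviation ran from 0.34 for Keap1 to 1.58 for Gpx7. Whether the genes varied less than transcripts of similar level was not tested. Among genes above 0 in every animal, the widest ranges over the 12 animals were those of Gpx8, an endoplasmic reticulum peroxidase, from 1.17 to 14.2 RPKM, of Nqo1, from 0.77 to 8.22, and of Gsta4, a glutathione transferase that removes lipid aldehydes, from 6.33 to 67.2. The narrowest were those of Gpx1, from 115 to 214 RPKM, and Txn1, from 85.0 to 167. Gpx8 and Nqo1 had as few as 6.1 and 6.0 estimated reads in a library.

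The principal comparison asks what losing Wfs1 does to these transcripts in islets, and no gene of the 36 passed an FDR of 0.05 or of 0.2 in Wfs1KO against WT islets by limma on log2(RPKM + 0.1). Gstm1 was lower in Wfs1KO and Nfe2l2 higher at an unadjusted p under 0.05, but neither separated all 4 animals of a genotype from the other. Of the 36, 22 were higher (61.1%) and 14 lower in Wfs1KO, beside 57.8% of all transcripts tested that were higher. The median log2 fold change of the 36 was 0.05, and that of all transcripts was 0.07. Leaving out 1 animal moved the median of the 36 to between -0.06 without Wfs1KO animal 4 and 0.19 without WT animal 2. The 2 genes with an unadjusted p under 0.05 made up 5.56% of the 36, against 5.64% of all transcripts, which is near that background. Of all transcripts, 0.0138% passed the FDR of 0.05 and 0.0461% that of 0.2. With the edgeR package, the paper reported more genes that differed between Wfs1KO and WT islets. A gene that did not pass here is therefore not shown to be unchanged. No gene had Wfs1KO animals all above or all below the WT animals, against 2.74% of all transcripts. Fitted log2 fold changes ran from -0.66 for Gpx7 to 0.96 for Gpx8.

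Against heterozygous islets, no gene of the 36 passed an FDR of 0.05 or 0.2 in Wfs1KO, and by limma 0 had an unadjusted p under 0.05, beside 2.45% of all transcripts. No transcript at all passed either FDR (0% of 21701). The paper, which used the edgeR package, did report genes that differed between Wfs1KO and Wfs1HZ islets. The lack of calls here thus cannot show that a gene was unchanged. There were 24 genes higher in Wfs1KO (66.7%) and 12 lower, beside 53.5% of all transcripts, and the median log2 fold change of the 36 was 0.26 against 0.04 over all transcripts. Without Wfs1HZ animal 4, whose acinar sum was the highest of all libraries, that median was 0.05. No gene separated the animals, against 1.43% of all transcripts.

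In heterozygous against WT islets, 0 of the 36 genes passed an FDR of 0.05 or 0.2, and 0% of all transcripts did. Gstm1 was lower and Txnip higher at an unadjusted p under 0.05 by limma, which is 2 of 36 (5.56%) against 2.35% of all transcripts. For Gstm1 the 4 Wfs1HZ animals all lay below the 4 WT animals, which made it 1 gene of 36 (2.78%) without overlap beside 1.66% of all transcripts. Here 14 genes were higher in Wfs1HZ (38.9%) and 22 lower, against 53.5% of all transcripts higher. The median was -0.08, against 0.04 over all transcripts, and it was 0.05 without Wfs1HZ animal 4. The 3 comparisons share their animals in pairs, so their values stand side by side and are not independent of each other. The labels do not tie the sequenced animals to litters or days, so the p-values measure the spread between these samples only.

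**Figure D2:**
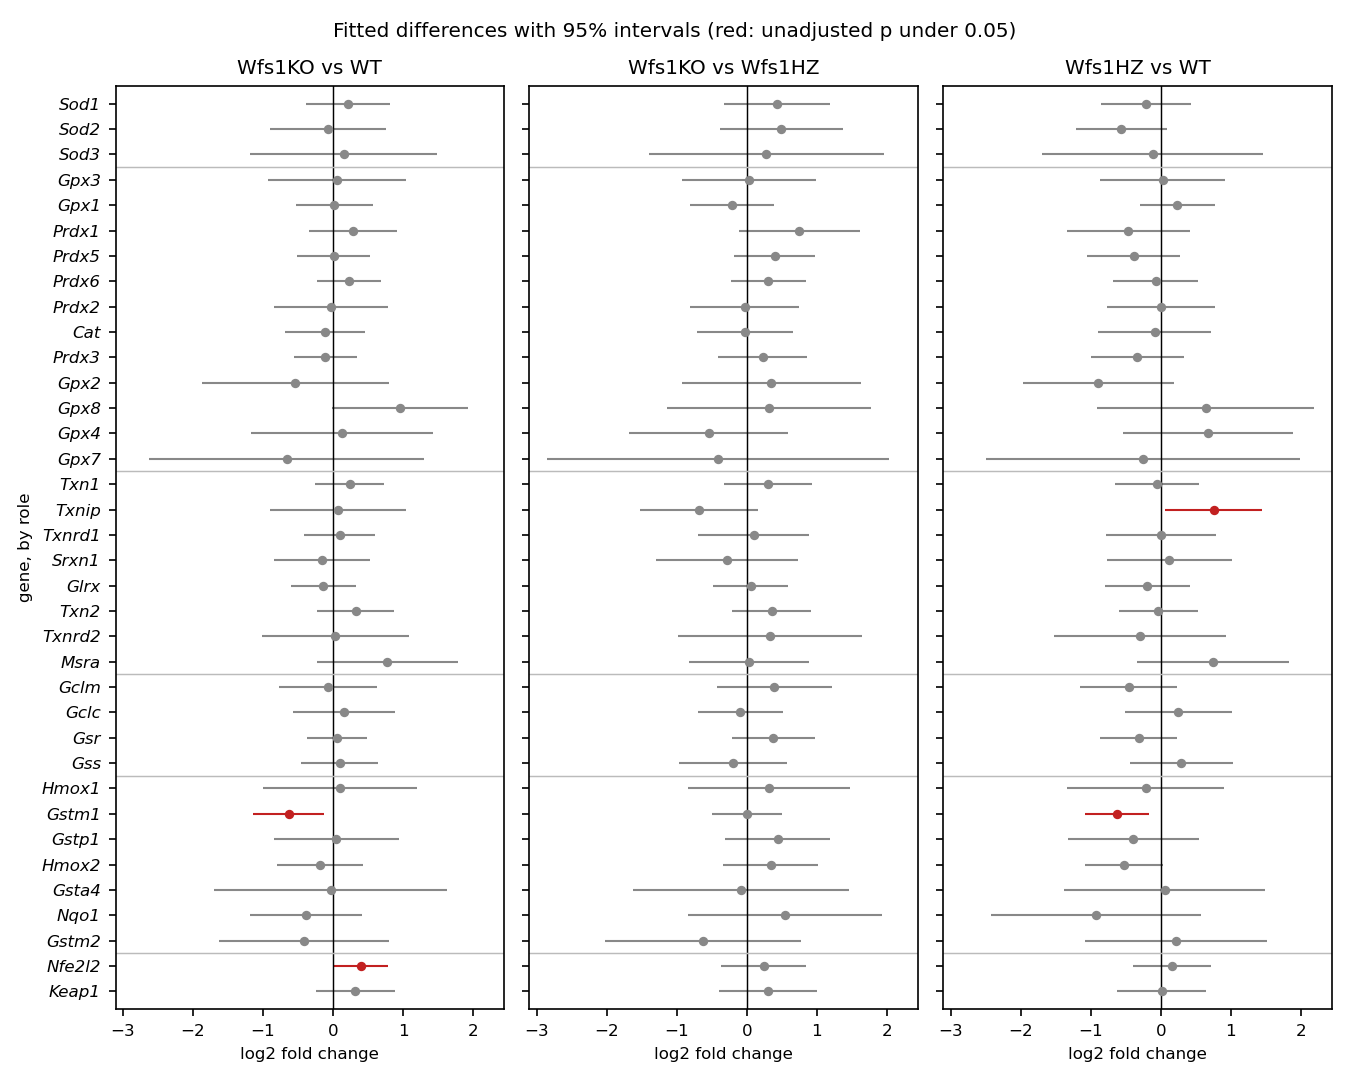
Log2 fold changes on log2(RPKM + 0.1) with 95% intervals for the 36 genes in the 3 comparisons, higher values to the right meaning higher in the genotype named first, and red marking an unadjusted p under 0.05. All intervals but those of Gstm1 and Nfe2l2 in Wfs1KO against WT, and of Gstm1 and Txnip in Wfs1HZ against WT, include 0.

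Among the conjugating, quinone and heme enzymes, 1 of 7 had an unadjusted p under 0.05 in Wfs1KO against WT and 1 of 7 in Wfs1HZ against WT, in both cases Gstm1. Gstm1 (GENCODE gene ENSMUSG00000058135, chr3:108012255-108017973, minus strand) encodes a mu-class glutathione transferase that couples glutathione to electrophiles. It measured 69.3, 74.3, 52.6 and 46.2 RPKM in WT animals 1 to 4, 36.8, 45.3, 37.2 and 35.3 in Wfs1HZ and 40.4, 35.6, 29.5 and 51.2 in Wfs1KO. WT animals 1 and 2 were the highest of all 12, all Wfs1HZ animals lay below the lowest WT animal, and Wfs1KO animal 4 overlapped WT animal 4. The log2 fold change was -0.63 (SE 0.22) in Wfs1KO against WT, with an adjusted p of 0.835 by limma and an exact two-sided permutation p of 0.0571. In Wfs1HZ against WT it was -0.63 (SE 0.21), with an adjusted p of 1 by limma and an exact permutation p of 0.0286, the smallest that 4 against 4 animals can give. Between the 2 mutant genotypes the difference was -0.00 (SE 0.23, 95% interval -0.50 to 0.50). The unadjusted p stayed under 0.05 in all 20 alternatives for Wfs1HZ and in 16 of 20 for Wfs1KO against WT, where it was 0.0554 without WT animal 1, 0.0606 without WT animal 2, 0.0502 without Wfs1KO animal 2 and 0.0526 without Wfs1KO animal 3. Since 657 bases of the Gstm1 transcript match the pseudogene Gstm2-ps1 at 97.9% identity, reads may be shared between them.

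Hmox1, which breaks down heme and is a classical NRF2 target, ranged more widely within each genotype than its means did between genotypes. It was 123, 303, 177 and 88.4 RPKM in WT, 170, 296, 86.8 and 73.3 in Wfs1HZ and 129, 115, 129 and 400.04 in Wfs1KO. Its 3 highest values came from WT animal 2, Wfs1HZ animal 2 and Wfs1KO animal 4, so each genotype held a high animal. The log2 fold change of Wfs1KO against WT was 0.10 (SE 0.49), and that of Wfs1HZ against WT was -0.22 (SE 0.50). Nqo1, the quinone reductase that is the usual readout of NRF2, was 2.99, 7.81, 7.91 and 3.60 RPKM in WT, 8.22, 1.75, 4.01 and 0.77 in Wfs1HZ and 4.21, 3.96, 4.37 and 3.11 in Wfs1KO. WT held a low and a high pair of animals, Wfs1HZ spread over the whole range, and the Wfs1KO animals lay near the low WT pair. In Wfs1HZ animals 2 and 4 the gene had only 6.0 estimated reads each. The log2 fold change of Nqo1 was -0.38 (SE 0.35) in Wfs1KO and -0.93 (SE 0.67) in Wfs1HZ against WT. Of the other transferases, Gsta4, Gstm2 and Gstp1 had log2 fold changes of -0.03, -0.41 and 0.04 in Wfs1KO against WT. Hmox2, the constitutive heme oxygenase, was 30.9 ± 6.97 RPKM in WT, 21.6 ± 5.85 in Wfs1HZ and 27.8 ± 9.26 in Wfs1KO. Its log2 fold change of Wfs1HZ against WT was -0.53 (SE 0.25, 95% interval -1.09 to 0.04). Gstp1, the pi-class transferase, was 46.7 ± 20.8, 34.6 ± 16.1 and 45.5 ± 14.8 RPKM in WT, Wfs1HZ and Wfs1KO. Gsta4 was at 30.3 ± 20.9, 31.6 ± 24.7 and 31.1 ± 20.9 RPKM in the same order, so its means lay close together while single animals ranged from 6.33 to 67.2.

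Both regulators were higher in Wfs1KO than in WT by the fitted value, but only Nfe2l2 had an unadjusted p under 0.05. Nfe2l2 (ENSMUSG00000015839, chr2:75675513-75704641, minus strand) was 52.3, 51.8, 66.6 and 58.4 RPKM in WT, 89.9, 79.3, 50.1 and 45.7 in Wfs1HZ and 91.7, 80.4, 64.5 and 67.0 in Wfs1KO. In Wfs1KO 3 animals lay above every WT animal and animal 3 fell just under WT animal 3, while Wfs1HZ held 2 animals above and 2 below the WT range. The log2 fold change of Wfs1KO against WT was 0.40 (SE 0.17, 95% interval 0.01 to 0.79), with an adjusted p of 0.879 by limma and an exact two-sided permutation p of 0.0571. That unadjusted p was under 0.05 in 9 of 20 alternatives and was over it, among others, without WT animals 1, 2 or 4 and without Wfs1KO animals 1 or 2. Against Wfs1HZ the log2 difference of Wfs1KO was 0.24 (SE 0.27), and in Wfs1HZ against WT it was 0.16 (SE 0.25). Keap1, which targets NRF2 for destruction, was 6.25, 4.29, 4.64 and 4.47 RPKM in WT, 6.19, 3.64, 5.94 and 4.33 in Wfs1HZ and 8.54, 6.53, 5.39 and 4.51 in Wfs1KO. Wfs1KO animals 1 and 2 were the highest of the 12 and animals 3 and 4 lay inside the WT range. Its log2 fold change in Wfs1KO against WT was 0.32 (SE 0.25, 95% interval -0.25 to 0.88).

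The 12 listed genes that are well known as NRF2 targets (Nqo1, Hmox1, Gclc, Gclm, Txnrd1, Srxn1, Gsr, Prdx1, Txn1, Gstm1, Gsta4 and Gstp1) did not all move one way. In Wfs1KO against WT 7 were higher and 5 lower, with a median log2 fold change of 0.05 beside 0.07 for all transcripts, and 1 of 12, Gstm1, had an unadjusted p under 0.05 and was lower. Against Wfs1HZ 8 were higher and 4 lower in Wfs1KO, with a median of 0.31 beside 0.04. Without Wfs1HZ animal 4 that count was 6 and 6 and the median 0.01, and it was 0.18 without Wfs1HZ animal 3. In Wfs1HZ against WT 3 were higher and 9 lower, with a median of -0.27 beside 0.04. Without Wfs1HZ animal 4 it was 6 and 6 with a median of -0.04, without Wfs1HZ animal 3 the median was -0.12, without WT animal 2 it was -0.12, and without WT animal 4 it was -0.41. With quantile normalization the median was -0.11, and it was 0.02 without the 4 libraries outside the acinar range of WT. The median of Wfs1KO against WT ranged from -0.17 without WT animal 4 to 0.18 without WT animal 2, and was also below 0 without Wfs1KO animal 4. The list was recomputed this way after its values were seen.

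Among the thioredoxin, glutaredoxin and repair genes, Txnip was the single gene of 8 with an unadjusted p under 0.05, in Wfs1HZ against WT. Txnip (ENSMUSG00000038393, chr3:96557957-96561883, plus strand), whose promoter carries the paired CACGAG printed above, was 46.1, 69.0, 112 and 45.8 RPKM in WT, 87.4, 145, 101 and 103 in Wfs1HZ and 51.5, 34.5, 90.9 and 121 in Wfs1KO. The 4 Wfs1HZ animals exceeded 3 of the 4 WT animals, and Wfs1KO held the lowest animal of all 12 as well as 1 of the 3 highest. The log2 fold change of Wfs1HZ against WT was 0.75 (SE 0.31), with an adjusted p of 1 by limma and an exact two-sided permutation p of 0.114. It had an unadjusted p under 0.05 in 11 of 20 alternatives, and lost it without WT animals 1, 2 or 4, without Wfs1HZ animals 2, 3 or 4, with the variance without trend, in the single fit of all 12 samples, and, in a setting added after the values were seen, without the 4 libraries outside the acinar range of WT. In Wfs1KO against WT the log2 fold change was 0.07 (SE 0.43), and it was -0.59 without those 4 libraries, which left only Wfs1KO animals 1 and 2. Between Wfs1KO and Wfs1HZ it was -0.69 (SE 0.38, 95% interval -1.53 to 0.16).

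No other gene of the thioredoxin group had an unadjusted p under 0.05. Txn1 and the cytosolic thioredoxin reductase Txnrd1 had log2 fold changes of 0.24 (SE 0.22) and 0.09 (SE 0.22) in Wfs1KO against WT, and the mitochondrial pair Txn2 and Txnrd2 had 0.32 (SE 0.24) and 0.04 (SE 0.47). Srxn1, sulfiredoxin, which restores over-oxidised peroxiredoxins, was -0.16 (SE 0.30) and ran from 22.9 to 106 RPKM over the 12 animals. Glrx, glutaredoxin, was -0.14 (SE 0.21), and Msra, which repairs oxidised methionine, was 0.78 (SE 0.44) at a WT level of 1.94 ± 1.16 RPKM.

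Glutathione synthesis and recycling showed no gene with an unadjusted p under 0.05 in any comparison. Gclc, the catalytic subunit of the enzyme that makes the first and limiting step of glutathione synthesis, was 31.0, 47.7, 63.3 and 22.5 RPKM in WT, 51.1, 59.4, 47.6 and 29.3 in Wfs1HZ and 36.5, 39.2, 60.6 and 37.7 in Wfs1KO. Its animals overlapped in all 3 genotypes, with WT spanning the lowest and the highest value. Gclm, the modifier subunit of the same enzyme, was 44.9, 72.8, 59.2 and 43.0 RPKM in WT, 35.5, 69.1, 37.1 and 25.4 in Wfs1HZ and 41.9, 57.1, 33.1 and 86.6 in Wfs1KO. Each genotype again had a high animal, with Wfs1KO animal 4 the highest. The log2 fold changes in Wfs1KO against WT were 0.16 (SE 0.32) for Gclc and -0.07 (SE 0.31) for Gclm. Gss, which completes glutathione, and Gsr, which reduces its oxidised form, were 0.09 (SE 0.24) and 0.06 (SE 0.19).

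None of the 3 superoxide dismutases had an unadjusted p under 0.05 in any comparison. Sod1 was 456, 594, 415 and 503 RPKM in WT, 419, 443, 509 and 330 in Wfs1HZ and 609, 551, 431 and 713 in Wfs1KO. Wfs1KO held the 2 highest animals and Wfs1HZ the lowest, with overlap between all pairs of genotypes. Its log2 fold change was 0.22 (SE 0.26) in Wfs1KO against WT and 0.43 (SE 0.34) against Wfs1HZ, with an exact permutation p of 0.0857 for the latter. Sod2, the mitochondrial enzyme, was 39.7 ± 9.63 RPKM in WT, 27.5 ± 9.18 in Wfs1HZ and 40.5 ± 16.7 in Wfs1KO. Its log2 difference between Wfs1HZ and WT was -0.56 (SE 0.29, 95% interval -1.21 to 0.09).

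Peroxide removal, the largest group with 12 genes, had 0 genes with an unadjusted p under 0.05 by limma in any comparison. Catalase, Cat, was 14.8, 24.9, 32.8 and 16.9 RPKM in WT, 27.8, 30.9, 12.8 and 14.5 in Wfs1HZ and 18.8, 21.9, 17.6 and 20.5 in Wfs1KO. WT and Wfs1HZ each split into a low and a high pair, and the Wfs1KO animals lay between them. Gpx1 was 124, 202, 132 and 135 RPKM in WT, 178, 149, 214 and 151 in Wfs1HZ and 161, 126, 115 and 202 in Wfs1KO. The 3 genotypes overlapped throughout. Gpx3 was 302, 879, 543 and 407 RPKM in WT, 477, 729, 493 and 369 in Wfs1HZ and 417, 573, 311 and 920 in Wfs1KO. As with Hmox1, its highest values were in WT animal 2, Wfs1HZ animal 2 and Wfs1KO animal 4. Log2 fold changes in Wfs1KO against WT were -0.11 (SE 0.25) for Cat, 0.02 (SE 0.24) for Gpx1 and 0.06 (SE 0.44) for Gpx3.

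Gpx8 came nearest to the threshold among the genes without a call, with a log2 fold change of 0.96 (SE 0.43, 95% interval -0.01 to 1.93, unadjusted p = 0.0525 and adjusted p = 0.879 by limma) in Wfs1KO against WT. It was 2.23, 4.04, 3.35 and 1.22 RPKM in WT and 8.36, 5.09, 3.03 and 4.45 in Wfs1KO. Wfs1KO animals 1, 2 and 4 lay above all WT animals and animal 3 among them. The log2 fold change was 0.64 without WT animal 4 and 0.70 without Wfs1KO animal 1. It was 1.19 without WT animal 2 and 1.18 without Wfs1KO animal 3, where the unadjusted p by limma fell under 0.05. Estimated reads of Gpx8 were 8.1 in WT animal 4 and 6.1 in Wfs1HZ animal 4. In Wfs1HZ the gene was 4.43, 14.2, 3.06 and 1.17 RPKM, so animal 2, the library with the highest stromal marker sum, stood far above the rest. The summed RPKM of 5 stromal genes was 337 in that animal, 17.0 to 49.9 in WT and 52.5 to 121 in Wfs1KO, and its part in the level of Gpx8 was not tested. The 5 peroxiredoxins among the chosen genes are thiol peroxidases. Their log2 fold changes in Wfs1KO against WT were 0.29 for Prdx1, -0.03 for Prdx2, -0.11 for the mitochondrial Prdx3, 0.01 for Prdx5 and 0.23 for Prdx6. Prdx4, which was not among the chosen genes, was at 11.0 to 21.2 RPKM in WT and 13.3 to 20.3 in Wfs1KO. Prdx1 had the largest difference between the 2 mutant genotypes, at 76.0 ± 23.2 RPKM in Wfs1KO and 49.0 ± 25.8 in Wfs1HZ (log2 fold change 0.75, SE 0.39, 95% interval -0.11 to 1.61). Wfs1HZ animal 4, at 21.2 RPKM, was its lowest value of the 12 animals and Wfs1KO animal 1, at 110, its highest. Gpx2, the glutathione peroxidase of the gut lining, was 8.80, 6.65, 2.23 and 5.67 RPKM in WT, 1.40, 3.81, 3.29 and 3.33 in Wfs1HZ and 6.89, 3.78, 5.31 and 1.13 in Wfs1KO. Its Wfs1HZ animals lay below 3 of the 4 WT animals, and the log2 fold change of Wfs1HZ against WT was -0.89 (SE 0.48, 95% interval -1.97 to 0.19). In Wfs1KO against WT it was -0.54 (SE 0.59). Gpx2 had as few as 4.0 estimated reads in a library, and Gpx4 as few as 1.7.

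**Figure D3:**
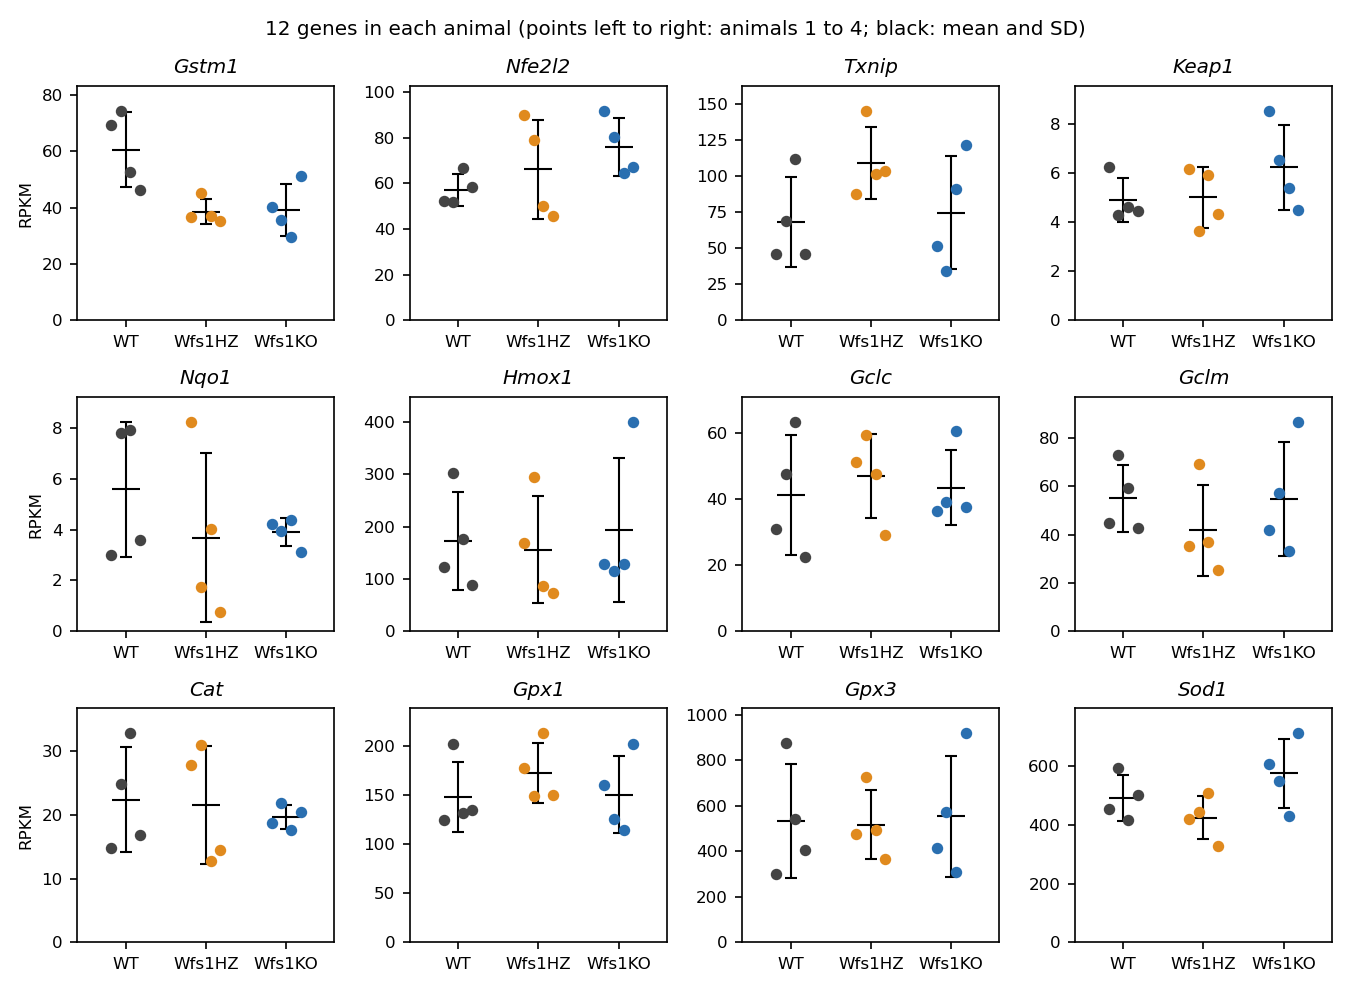
RPKM in each animal for 12 of the genes, with 4 points per genotype in the order of animals 1 to 4 and the mean and SD in black. Gstm1 in Wfs1HZ lies wholly below WT, and in the other panels the points of the genotypes overlap.

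Several animals were high or low for many of the genes at once. Within WT, animal 2 held the highest value for 13 of the 36 genes and animal 4 the lowest for 16. Wfs1HZ animal 2 held the highest for 19 and Wfs1HZ animal 4 the lowest for 21, while in Wfs1KO animal 1 held the highest for 16 and animal 3 the lowest for 14. The median difference of the 36 genes from their WT mean ran on the log2 scale from -0.56 in Wfs1HZ animal 4 to 0.29 in Wfs1HZ animal 1. The counts per animal were not set beside those of all transcripts. Over the transcripts above 0 in every library, the median ratio to their geometric mean was 0.64 in Wfs1HZ animal 4 and 0.81 in Wfs1KO animal 3. It was 1.39 in Wfs1HZ animal 2 and 1.08 in Wfs1HZ animal 1. In Wfs1HZ animal 4 both the 36 genes and these transcripts were thus low. In WT animal 1 the ratio was also 1.08, but the median difference of the 36 genes was 0.08. Wfs1HZ animal 2, with the highest ratio, had a median difference of 0.13. Whether the shifts were particular to the 36 genes was not tested. RPKM values share 1 total per library, so transcripts that take a large share of the reads lower the rest. The acinar sum was 308803 in Wfs1HZ animal 4 and 106771 in Wfs1HZ animal 1, and the part of the cell mix in these differences was not tested.

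**Figure D4:**
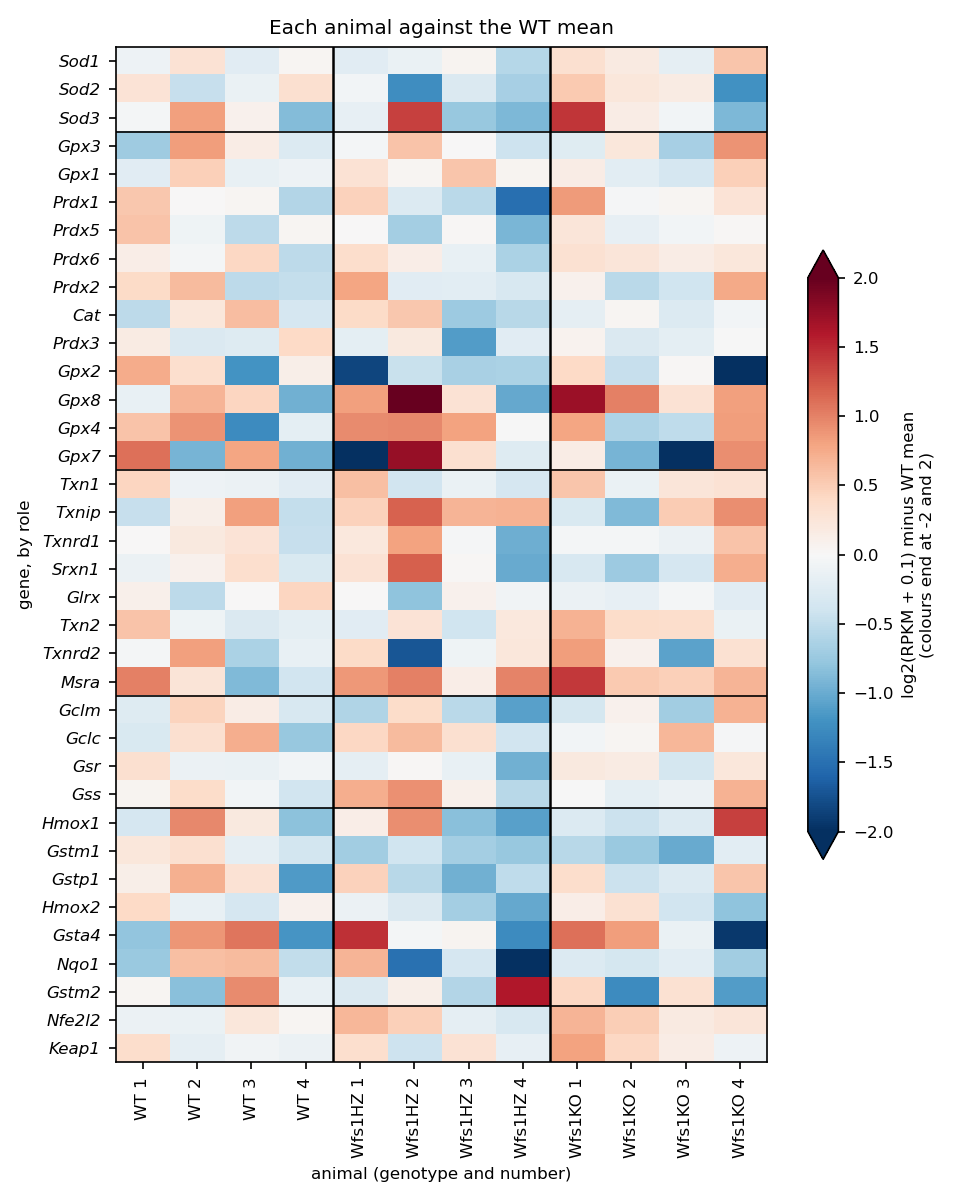
Difference of log2(RPKM + 0.1) from the WT mean for the 36 genes (by role) in 12 animals, red above and blue below the WT mean. Wfs1HZ animal 4 is blue for most genes, and no genotype is of a single colour.

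After the values were seen, the animal of each genotype with the lowest summed beta-cell markers was singled out, namely WT animal 2, Wfs1HZ animal 2 and Wfs1KO animal 4. Their beta sums were 32013, 12514 and 22329 RPKM. They also held the highest sums of Gcg, Sst and Ppy, the alpha-, delta- and PP-cell hormones, at 193810, 168681 and 240400. Most of each sum was Gcg, at 182240, 155286 and 217165 RPKM. Ppy was also at its genotype's highest in each, but Sst was so only in Wfs1KO animal 4. In Wfs1HZ animal 2 Sst was the lowest of its genotype, at 2272 RPKM. The acinar sums of these animals were the lowest of each genotype. In all 3 of these animals at once, Gpx3, Hmox1, Gclm, Gss, Gstm1 and Gpx4 were at their genotype's highest, which is 6 of 36 genes (16.7%) beside 15.0% of all transcripts tested. Sod2, Glrx and Keap1 were at their genotype's lowest in the 3 animals, which is 3 of 36 (8.33%) beside 1.65% of all transcripts. These animals were chosen on the same libraries, so the counts are a description with no test. The part of the cell mix in these levels was not tested.

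**Figure D5:**
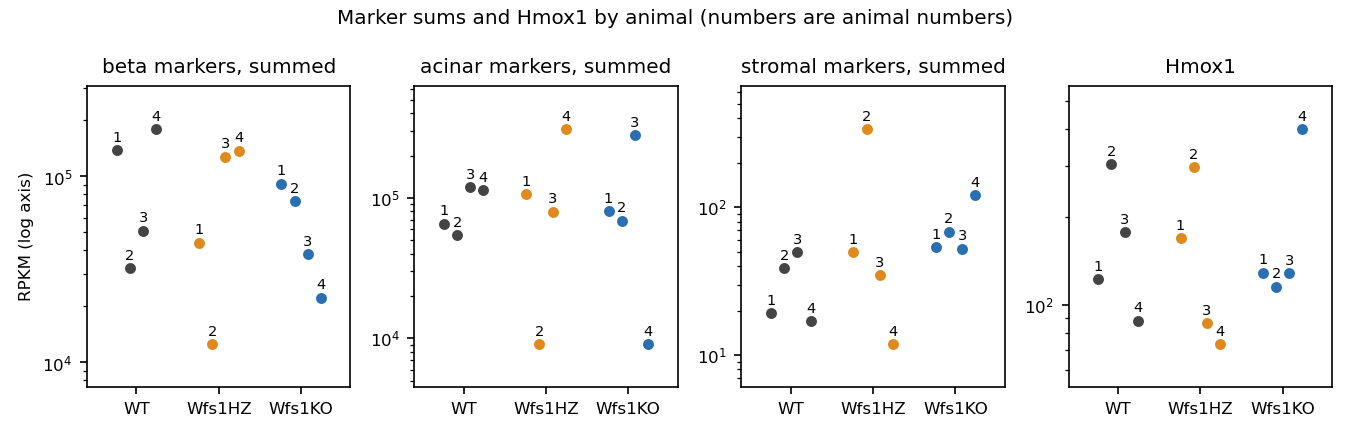
Summed RPKM of 8 beta-cell, 10 acinar and 5 stromal markers, and the RPKM of Hmox1, in each animal on log axes with the animal number above the point. WT animal 2, Wfs1HZ animal 2 and Wfs1KO animal 4 have the lowest beta sum and the highest Hmox1 of their genotype.

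When the log2 acinar sum was added as a covariate, the unadjusted p of Gstm1 remained under 0.05 in Wfs1KO against WT (log2 fold change -0.71) and in Wfs1HZ against WT (-0.65), and Nfe2l2 was 0.41. It also brought Gclm (-0.53) and Hmox2 (-0.56) to an unadjusted p under 0.05 in Wfs1HZ against WT, each with an adjusted p of 0.811 by limma. Without the 4 libraries whose acinar sum lay outside the WT range, Gstm1 was -0.65 in Wfs1KO and -0.68 in Wfs1HZ against WT, and Nfe2l2 was 0.59. This left 2 animals of each mutant genotype against 4 of WT. The Wfs1KO animals left, 1 and 2, held the highest Keap1 values of all animals. They also held the highest Gpx8 and Nfe2l2 values of their genotype. Both settings were chosen after the values were seen. The share of all transcripts with such a p under them is not given here, so the genes they brought under it have no background beside them. The second setting also brought Gpx8 (1.36) and Keap1 (0.61) to an unadjusted p under 0.05 in Wfs1KO against WT, with adjusted p values of 0.576 and 0.584 by limma. Between Wfs1KO and Wfs1HZ, where 2 animals of each were left, it brought Sod2 (0.55), Txn2 (0.84) and Gsr (0.35) to a higher and Txnip (-1.16), Srxn1 (-0.67) and Gclc (-0.38) to a lower value at that p, the lowest adjusted p being 0.403 by limma.

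Other genes of the pathway, taken from 5 lists, gave the same count of 0 transcripts passing the FDR of 0.05 in the 3 comparisons. The lists were other thioredoxin-fold and repair genes (17 tested), glutathione use and transport (29 of 30 tested), NADPH supply and other NRF2 targets (18), further regulators (11) and sources of superoxide or hydrogen peroxide (12). In Wfs1KO against WT, 2 of these genes were higher and 4 lower at an unadjusted p under 0.05, by limma. By list these were 1 higher of 17, 0 of 29, 1 lower of 18, 1 lower of 11, and 1 higher and 2 lower of 12. Of all transcripts 5.64% had such a p. The 4 lower genes had overlapping animals and are not named. Ncf4, a subunit of the phagocyte NADPH oxidase, was 0.79, 1.00, 1.28 and 0.83 RPKM in Wfs1KO against 0.55, 0.31, 0 and 0 in WT, with all Wfs1KO animals higher (exact permutation p = 0.0286, adjusted p = 0.835 by limma). These levels are near those of a few reads per library, and Wfs1HZ animals were at 1.29, 0, 0 and 1.09. The summed RPKM of 8 leukocyte and macrophage markers was 35.0 to 149 in WT and 20.1 to 71.6 in Wfs1KO. Most of that sum was Cd68, at 23.65 to 142.45 RPKM in WT and 11.11 to 60.72 in Wfs1KO. The markers did not move one way. By fitted value Cd68, C1qa and Itgam were lower in Wfs1KO, and Ptprc, Emr1, Csf1r, Lyz2 and C1qb higher. All Wfs1KO animals were higher only for C1qb, with means of 1.325 against 0.125 RPKM. The part of these cells in the level of Ncf4 was not tested. In Wfs1KO against Wfs1HZ, Gpx6, a relative of Gpx3, was the single gene with an unadjusted p under 0.05. That is 1 of the 29 tested on its list, beside 2.45% of all transcripts. Gpx6 was at 0.33, 1.15, 0.59 and 0.48 RPKM against 0.30, 0, 0.11 and 0.16, levels that are also near those of a few reads per library. The methionine sulfoxide reductase Msrb1, listed under its older name Sepx1, was 10.8, 6.66, 5.35 and 12.8 RPKM in Wfs1HZ against 5.25, 5.03, 3.09 and 3.51 in WT, with all Wfs1HZ animals higher (log2 fold change 1.01, SE 0.34, adjusted p = 1 by limma). It was also higher in Wfs1KO at an unadjusted p under 0.05, with a log2 fold change of 0.62 (SE 0.26), where the animals overlapped. In Wfs1HZ against WT 2 of these genes were higher and 1 lower at that p, beside 2.35% of all transcripts. By list these were 1 higher of 17, 0 of 29, 1 lower of 18, 1 higher of 11 and 0 of 12.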

How the data were processed

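RNA of islets from 12 mice was amplified from 10 ng and sequenced as paired reads of 75 and 35 bases, and the authors mapped them to mm10 with LifeScope and deposited RPKM values for 24078 rows. The transcript annotation and the counting tool are not given in the sources used here, and RPKM are not counts, so no count model was used. Values were taken as log2(RPKM + 0.1), and the 21701 transcripts that averaged 0.1 RPKM or more across all 12 animals were tested with limma 3.58.1 (R 4.3.3), each pair of genotypes alone, with a trended prior variance and Benjamini-Hochberg adjustment over all transcripts tested. Fold changes on this scale understate those of low genes. Single genes were also tested by exact two-sided permutation of the genotype labels. The genes, lists and markers were chosen with earlier results of these data known. Per-animal values were given for the genes with an unadjusted p under 0.05 or no overlap, the 3 highest in WT, and Nfe2l2, Keap1, Nqo1, Hmox1, Gclc, Gclm, Cat, Gpx1 and Txnip, and Gpx8 was added after its values were seen. Of other lists, up to 4 genes a list and comparison with both an unadjusted p under 0.05 and no overlap were named. Mapped reads were estimated from genes under 200 bases, where 75.0 to 86.5% of values up to 3 reads fell within 0.1 of a whole read. This was too coarse to recover counts. Near copies were sought with blastn 2.17.0 among GENCODE M21 transcripts, which use the same build. Promoter windows are RefSeq's (GRCm38.p6), found for 29 of the 36 genes. The fit was tested on simulated data.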

Additional observations from a re-analysis of the deposited data

Results flagged for a closer look

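In 10 of the 111 sets of 4 animals tested (a gene in a genotype), 1 animal stood apart from the other 3 by Dixon's criterion, where chance flags about 1 in 20. Hmox1 was 400.04 RPKM in Wfs1KO animal 4, against 115 to 129 in the others. Txnrd1 was 82.39 RPKM in the same animal, against 51.0 to 54.4. Gclc was 60.56 RPKM in Wfs1KO animal 3, against 36.5 to 39.2, and Gsr was 16.41 there, against 23.6 to 24.6. Gsr was 26.20 RPKM in WT animal 1, against 19.0 to 20.1. In Wfs1HZ animal 1, Prdx2 was 46.32 RPKM against 21.3 to 23.0 and Gpx2 was 1.40 against 3.29 to 3.81. Glrx was 13.29 RPKM in Wfs1HZ animal 2, against 22.4 to 24.8. Msra was 1.89 RPKM in Wfs1HZ animal 3, against 3.20 to 3.52, and Gpx4 was 1.49 in Wfs1HZ animal 4, against 2.71 to 3.03.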

How the results depend on the processing

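No gene of the 36 passed the FDR of 0.05 in any comparison under any of the 12 other settings or the runs that left out 1 animal. The median log2 fold change of the 36 in Wfs1KO against WT was 0.05, from -0.06 without Wfs1KO animal 4 to 0.19 without WT animal 2, and was also below 0 without WT animal 4 or Wfs1KO animal 1 and, at -0.04 to -0.01, with quantile normalization, sample weights, the acinar covariate and without the 4 libraries outside the acinar range. Against Wfs1HZ it was 0.26, from 0.05 without Wfs1HZ animal 4 to 0.30 without Wfs1KO animal 3, 0.12 without Wfs1HZ animal 3, 0.10 without Wfs1KO animal 1 and 0.11 with quantile normalization. In Wfs1HZ against WT it was -0.08, from -0.23 without Wfs1HZ animal 1 to 0.05 without Wfs1HZ animal 4, -0.20 without WT animal 4, 0.00 with quantile normalization and 0.03 without the 4 libraries. The number of genes with an unadjusted p under 0.05 was less stable. In Wfs1KO against WT it was 2, and 1 with the variance without trend, in a single fit of all 12 samples and with the replicate block, 3 with sample weights, 4 without the 4 libraries outside the acinar range of WT, and 0 to 2 when 1 animal was left out (0 without Wfs1KO animal 2, 1 without WT animals 2 or 4 or Wfs1KO animal 1). In Wfs1KO against Wfs1HZ it was 0, and 1 with median-of-ratios scaling, in the single fit and with the replicate block, 5 with sample weights, 6 without the 4 libraries, and 0 to 2 without 1 animal (2 without Wfs1HZ animal 1 or Wfs1KO animal 4). In Wfs1HZ against WT it was 2, and 1 with the variance without trend, in the single fit and without the 4 libraries, 4 with the acinar covariate, 5 with the replicate block, 6 with sample weights, and 1 to 5 without 1 animal (1 without WT animals 1 or 4 or Wfs1HZ animal 3, 4 without WT animal 3 and 5 without Wfs1HZ animal 1). The share of all transcripts at that p under each setting is not given here, so these counts are not set against a background. The cause of their changes was not tested. The lowest adjusted p of a gene was at or above 0.302 in all of them. The labels do not say whether the replicate numbers pair the animals. Deviations of same-numbered animals correlated at -0.17 to 0.23. Differently numbered animals were not set beside them, so these values cannot settle the pairing, and the block is a check only. Depth limits the low genes, since 9 of the 36 fell under 10 estimated reads in at least 1 library.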
